A study of Mus musculus with 15 samples.

Results

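The genes of the nuclear genome that encode subunits of the mitochondrial respiratory chain were examined in 21EM15 cells, an immortalized line of mouse lens epithelial cells. They were taken by symbol, as every gene beginning with Ndufa, Ndufb, Ndufc, Ndufs, Ndufv, Sdha, Sdhb, Sdhc, Sdhd, Uqcr, Cox4i, Cox5, Cox6, Cox7, Cox8 or Atp5, together with *Cyc1* and *Cycs*, leaving out the Ndufaf assembly factors and pseudogene symbols. This gave 84 of the 11935 genes listed in either of 2 expression tables, 83 of 11677 genes in the culture table and 84 of 11299 genes in the region table. *Atp5o* was listed in the region table alone, and no symbol beginning with Cox4i was matched. The entry named *Ndufb1* is annotated in GENCODE M21 as a non-coding RNA from a bidirectional promoter and was kept by its symbol. Of the 84 genes, 36 were placed in complex I, with the *Ndufb1* entry among them, and 4 in complex II. A further 9 were placed in complex III, 13 in complex IV with *Ndufa4* among them, and 17 in complex V. *Cycs* encodes the mobile carrier cytochrome c, and the remaining 4 genes, *Sdhaf1*, *Sdhaf2*, *Sdhaf3* and *Sdhaf4*, encode assembly factors of complex II that share the Sdha prefix.

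Complexes I and II pass electrons from NADH and succinate to ubiquinone, complex III passes them on to cytochrome c, and complex IV passes them to oxygen. Complexes I, III and IV pump protons across the inner membrane, and complex V, the ATP synthase, uses the gradient to make ATP. Complex II is encoded wholly in the nucleus, whereas the other complexes combine nuclear-encoded subunits with a few that are encoded by mitochondrial DNA, so that both genomes supply parts of the same enzymes. In the lens, mitochondria are kept in the epithelium and in young fiber cells and are removed as fiber cells mature.

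RNA was measured by 3′ end sequencing, which yields reads from the end of each polyadenylated transcript, in 4 samples of flat 2D cultures, 4 of 3D organoids, 4 of the internal region of organoids and 3 of their external region, the regions being isolated by laser capture microdissection. All samples were labelled WT and came from this single cell line without further treatment. The study set aside a further external sample after a principal component analysis placed it apart from the rest, so the external samples used here were kept partly for their likeness to each other, which bears on their spread and on every test between the regions. Per the study's methods, each replicate was taken from a dish (2D) or from a pool of organoids (3D and regions). Whether replicates were grown from separate passages of the line or on separate days, and whether internal and external samples came from the same pools, is not given in the sources used here. The p-values therefore set each difference against the spread between these samples, with the variance moderated over all genes of a table.

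The values are log2 CPM, the log2 of the reads of a gene scaled to a common library total, and the 2 tables were scaled separately, so that 3D was compared with 2D and internal with external, and levels were not compared across the tables. Differences are given as 3D minus 2D and as internal minus external on the log2 scale. They were tested with limma over all genes of a table and called at a Benjamini-Hochberg adjusted p below 0.05, with no fold change threshold. The samples held between 7305053 and 9362587 reads in the culture table and between 4044230 and 11702504 in the region table. Of the 16 lens markers, 7 were listed in the culture table and 8 in the region table. *Pax6*, *Six3*, *Cryab* and *Aqp1* were among both, while *Cryaa*, *Foxe3*, *Mip* and *Bfsp2* were in neither. The lens markers listed summed to between 1400 and 1720 CPM in 2D and between 3680 and 5430 CPM in 3D. Without *Aqp1*, a water channel gene that made up more than 50% of the sum in 3D, they gave between 833 and 1200 CPM in 2D and between 1480 and 1820 CPM in 3D.

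The 84 genes were well expressed as a group. Their median level was 7.60 log2 CPM in the culture table, against 4.63 for all genes, and 7.35 in the region table, against 4.76 for all genes. *Cox6c*, a subunit of complex IV, was the highest in the cultures with a mean of 10.10 log2 CPM, and *Atp5d*, the delta subunit of the ATP synthase, was the highest in the regions with 9.55. These levels needed no division by transcript length, because each transcript gives reads from its end only. The lowest were *Cox7a1*, the heart and muscle form of a complex IV subunit, at -0.40 in the cultures, and *Sdhd*, a membrane anchor of complex II, at 0.47 in the regions. Means below 4 log2 CPM were found for 6 members in the cultures and 7 in the regions, among them *Ndufb8*, *Ndufs5*, *Cox6a2* and *Sdhaf3* in both.

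Many respiratory chain genes are known targets of nuclear respiratory factors, and their upstream sequences were therefore searched for 3 short motifs. RefSeq promoters (GRCm38.p6) were matched for 71 of the 84 genes, giving 76 promoters, of which the 250 bases before the start site were read on both strands. The core GCGCATGC of the site of NRF1, a transcription factor of respiratory genes, was found in 9 of the 76 promoters (11.8%), compared with 4.29% of the 12181 promoters of genes listed in either table and 2.26% of all 32851 promoters. The core CCGGAAG of the ETS family, to which GABPA belongs, was found in 18.4% of the members' promoters and 13.6% of those of the listed genes, and the core AAGATGGC of YY1 in 1.32% and 1.99%. The ETS core ends in the letters AAG with which the YY1 core begins, so these can run into each other, and the NRF1 core can match on both strands at a single site. The 4 windows around an NRF1 core printed here were chosen because they belong to *Ndufa6*, the member with the largest increase called in 3D, and to the 3 members with such a core that were lower in the internal region. Capitals mark the core on either strand, and where they span more than 8 letters the core is present on both strands. The windows, written 5′ to 3′ along the gene's strand, lie at chr15:82354337-82354404 (minus strand, *Ndufa6*), chr6:50566592-50566659 (minus strand, *Cycs*), chr9:44920945-44920992 (minus strand, *Atp5l*) and chr5:115349081-115349150 (minus strand, *Cox6a1*).
Ndufa6: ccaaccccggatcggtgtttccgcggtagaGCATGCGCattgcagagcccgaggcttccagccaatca
Cycs: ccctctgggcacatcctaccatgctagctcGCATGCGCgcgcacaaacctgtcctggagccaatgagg
Atp5l: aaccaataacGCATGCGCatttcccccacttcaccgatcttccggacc
Cox6a1: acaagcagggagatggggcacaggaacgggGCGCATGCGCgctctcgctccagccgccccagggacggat
The core was found in 3 of the 32 promoters of members lower in the internal region and in 6 of the 44 promoters of members not called there. A match of letters is a description of these windows and was not linked to any change in level.

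The comparison of the 2 regions asked whether the inside of the organoids differs from their outside. In the internal region, 34 of the 84 genes fell and none rose (limma, Benjamini-Hochberg adjusted p below 0.05). Over all genes, 21.7% were called, 12.1% as lower and 9.58% as higher. The 84 genes had a median log2 fold change of -0.44, and all genes one of 0.04. At an unadjusted p below 0.05, 49 of the 84 genes (58.3%) differed, against 33.6% of all genes. The values of the 4 internal samples lay wholly below those of the 3 external samples for 41 of the 84 genes and wholly above them for 0, against 15.4% and 13.5% of all genes and 29.0% in either direction. At stricter thresholds, an adjusted p under 0.01 with an absolute log2 fold change over 1, *Uqcrq* and *Atp5g1* were called, and 7.62% of all genes. In such bulk samples, fewer cells of a type and less RNA per cell cannot be told apart. The count of genes that fell was 22 without external replicate 3 and between 28 and 33 without any other single sample. Among these refits, members were called as higher without external replicate 1 (*Ndufa1*, *Ndufb1* and *Cox7c*) and without internal replicate 3 (*Ndufv3*). Of the 34 genes, 21 were called in all 7 refits with one sample omitted. When the prior variance was not allowed to follow the mean level, 11 of the 34 genes remained and no other was called, and *Ndufa3*, *Ndufa2*, *Uqcrc1*, *Cox8a* and *Atp5g3* were among those lost.

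**Figure D1:**
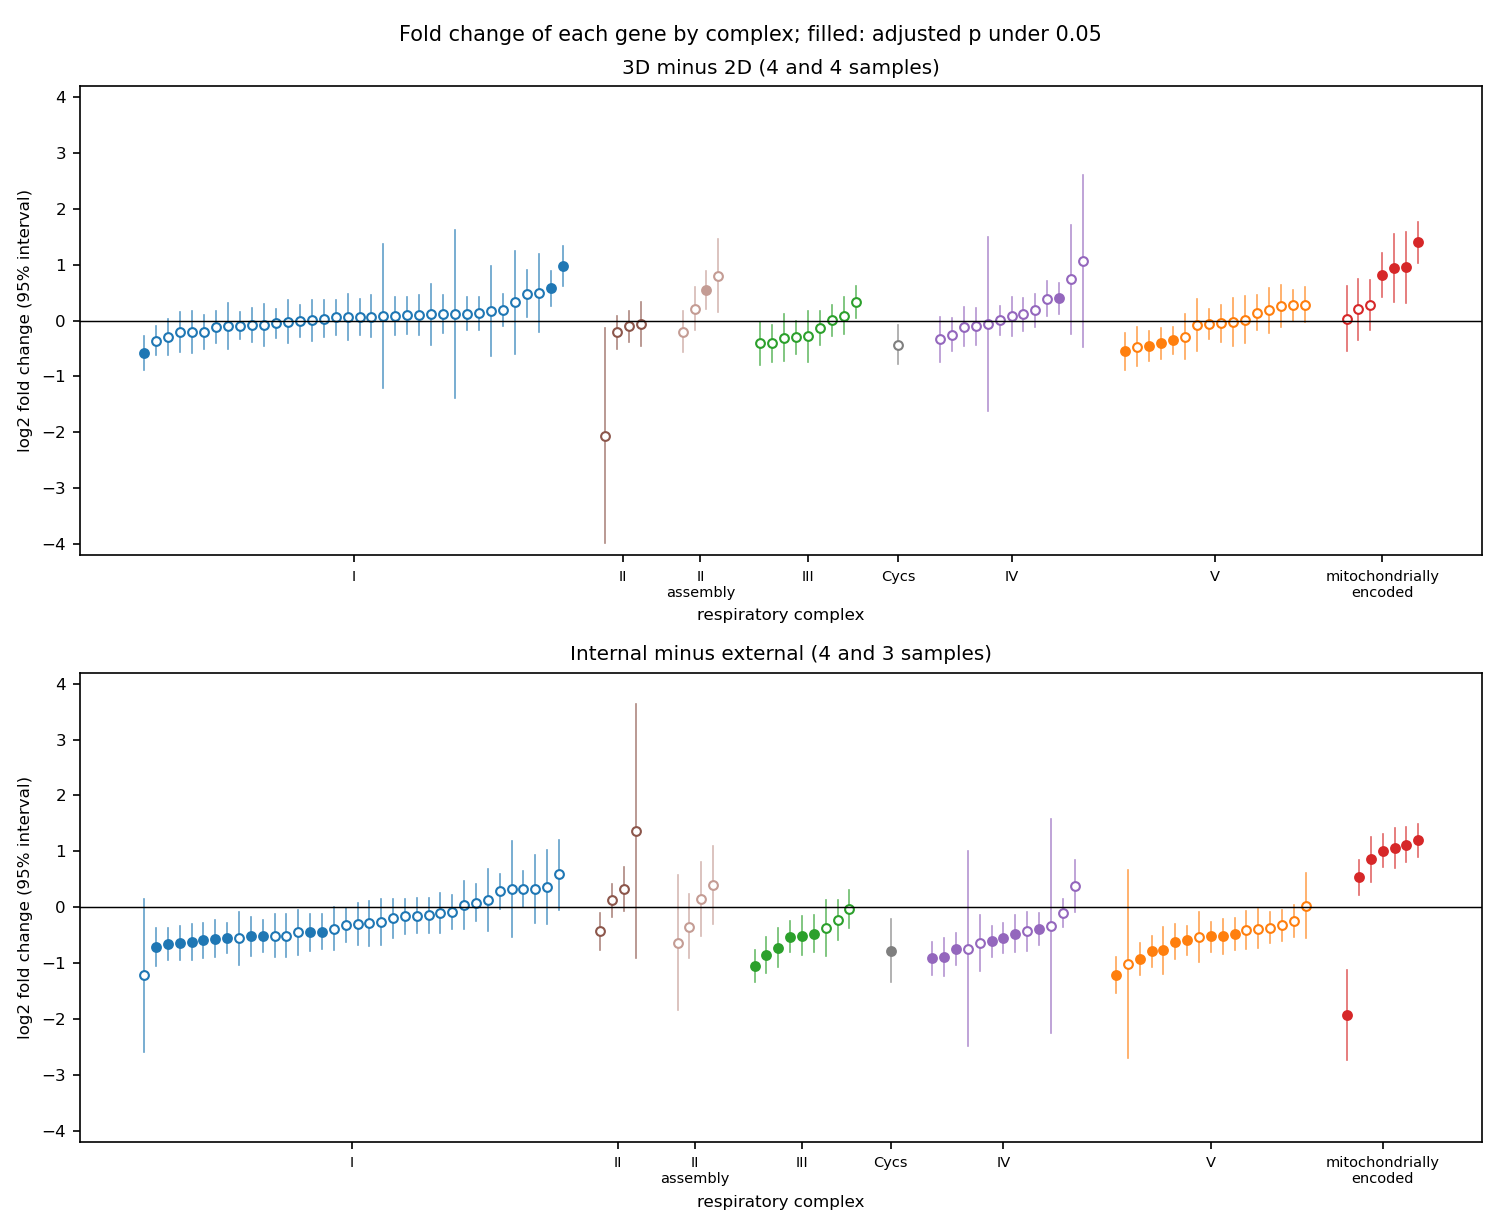
Log2 fold change of every respiratory chain gene and every mitochondrially encoded gene, ordered within complexes, with 95% intervals from limma; the upper panel is 3D minus 2D and the lower panel internal minus external. Filled points mark an adjusted p below 0.05, and in the lower panel all 34 filled nuclear-encoded points lie below 0 while 6 of the 7 mitochondrially encoded points lie above it.

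The share of genes that fell differed in its values between the complexes. It was 11 of 36 in complex I, 6 of 9 in complex III, 7 of 13 in complex IV and 9 of 17 in complex V, and *Cycs* fell too. None of the 4 genes of complex II and none of its 4 assembly factors was called in limma's test, and at an unadjusted p below 0.05 only *Sdhb* was. The median log2 fold change was -0.31 for complex I, -0.51 for complex III, -0.55 for complex IV and -0.53 for complex V. For complex II it was 0.22, over 4 genes with values from -0.43 for *Sdhb* to 1.36 for *Sdhd*. *Sdhd* had only between 0 and 65 reads per region sample. The counts and medians of the complexes were not tested against each other.

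As a share of all reads, the 84 genes took 2.01%, 2.01% and 2.16% in external replicates 1 to 3, and 1.62%, 1.58%, 1.59% and 1.56% in internal replicates 1 to 4. The internal samples were all lower than the external samples. For complex V alone, the share was between 0.562% and 0.637% in the external region and between 0.418% and 0.423% in the internal region. For complex III it was at least 0.282% in the external and at most 0.224% in the internal samples. The regions did not overlap in complex I or IV either, with means of 0.658% ± 0.0272 (SD, n = 3) and 0.556% ± 0.0189 (SD, n = 4) for complex I, and 0.462% ± 0.00591 and 0.354% ± 0.00985 for complex IV. Complex II overlapped, with between 0.0338% and 0.0417% in the external region and between 0.0373% and 0.0417% in the internal region.

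**Figure D2:**
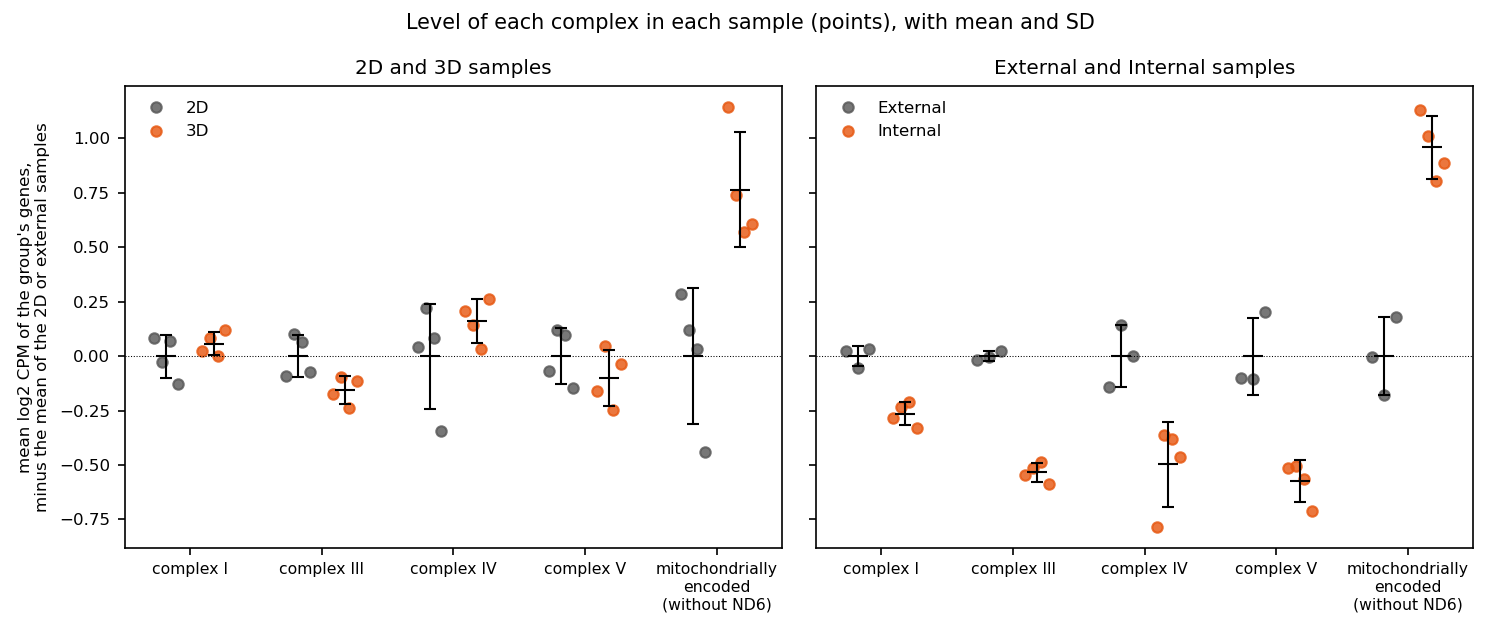
Mean log2 CPM over the genes of complexes I, III, IV and V and of the mitochondrially encoded genes without ND6 in every sample, minus the mean of the 2D samples (left) or of the external samples (right). Points are samples and bars are mean and SD, and the internal samples lie below the external samples for the 4 complexes and above them for the mitochondrially encoded genes, whereas the 2D and 3D samples overlap for complexes I, IV and V.

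In complex I, the called genes with the largest decreases were *Ndufa3*, *Ndufb5* and *Ndufa2*, which encode accessory subunits that surround the catalytic core. *Ndufa3* (chromosome 7, 3617373 to 3620327) had 7.92, 7.90 and 8.42 log2 CPM in external replicates 1 to 3 and 7.63, 7.13, 7.32 and 7.36 in internal replicates 1 to 4. The internal samples were all lower, and the log2 difference was -0.72 (95% interval -1.05 to -0.38, adjusted p = 0.00227 from limma). *Ndufb5* (chromosome 3, 32736990 to 32751566) had 8.27, 8.55 and 8.51 in the external samples and between 7.66 and 7.85 in the internal samples, a log2 difference of -0.66 (adjusted p = 0.00105). *Ndufa2* had 9.70, 9.78 and 10.01 in the external samples and 9.58, 9.06, 8.93 and 9.18 in the internal samples, with internal replicate 1 close to the external samples. Its log2 fold change was -0.64 (adjusted p = 0.00285).

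Among the core subunits of complex I that carry its redox centres, *Ndufv1*, which binds the flavin where NADH is oxidised, had a log2 difference of -0.45 (adjusted p = 0.0456), and this call was lost in 6 of the 7 refits with one sample omitted. *Ndufv2*, *Ndufs8*, *Ndufs3*, *Ndufs1* and *Ndufs7*, which hold iron-sulfur clusters or lie beside them, were not called. Their log2 fold changes were -0.51 for *Ndufv2* (adjusted p = 0.0519), -0.45 for *Ndufs8* (0.091), -0.38 for *Ndufs3* (0.145), -0.29 for *Ndufs1* (0.315) and -0.09 for *Ndufs7* (0.709). Sequence shared with another gene made up 53.0% of the 3′ end of *Ndufs3*, which makes its level from unique reads uncertain. Among the accessory subunits, those that also fell were *Ndufs6*, *Ndufb7*, *Ndufa12*, *Ndufa10*, *Ndufc1* and *Ndufa5*, with log2 fold changes between -0.59 and -0.44. The call of *Ndufa5* was lost in 5 of the 7 refits with one sample omitted, that of *Ndufa10* in 3, that of *Ndufb7* in 2, and those of *Ndufs6* and *Ndufc1* in 1 each.

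In complex II, the flavoprotein gene *Sdha* (chromosome 13, 74322254 to 74350280) had 7.55, 7.37 and 7.34 log2 CPM in the external samples and 7.58, 7.47, 7.40 and 7.70 in the internal samples. The samples overlapped, and the difference was 0.12 with a 95% interval from -0.18 to 0.42. *Sdhb*, the iron-sulfur subunit, had 7.33, 7.13 and 7.24 in the external samples and 6.68, 6.64, 6.95 and 6.93 in the internal samples. All internal samples were lower, yet the log2 fold change of -0.43 missed the threshold (adjusted p = 0.0516). The anchor gene *Sdhc* differed by 0.32 (adjusted p = 0.241). The other anchor gene, *Sdhd*, had between 0 and 65 reads in the region samples, and no difference was detectable at this depth (adjusted p = 0.416).

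In complex III, 6 of 9 genes fell. *Uqcrq* (chromosome 11, 53427922 to 53430831), a small accessory subunit, had 9.41, 9.57 and 9.98 log2 CPM in the external samples and 8.63, 8.45, 8.72 and 8.60 in the internal samples. The regions were apart by more than their spread, with a log2 difference of -1.06 (95% interval -1.35 to -0.76, adjusted p = 8.9e-06). *Cyc1* (chromosome 15, 76343523 to 76346260), the cytochrome c1 that hands electrons to cytochrome c, had 8.17, 8.34 and 7.91 in the external samples and 7.13, 7.17, 7.24 and 7.56 in the internal samples, a log2 difference of -0.86 (adjusted p = 0.000224). *Uqcrc1*, a core subunit, had 7.54, 7.61 and 7.54 in the external samples and between 6.44 and 7.16 in the internal samples, a log2 difference of -0.73 (adjusted p = 0.00264). The other core subunit gene, *Uqcrc2*, differed by -0.04 (95% interval -0.38 to 0.30). *Uqcr10*, *Uqcr11* and *Uqcrh* fell by 0.53, 0.51 and 0.47 on the log2 scale, and the calls of *Uqcr11* and *Uqcrh* were lost in 3 and 4 of the 7 refits with one sample omitted. *Uqcrfs1*, which encodes the Rieske iron-sulfur protein, was not called (log2 fold change -0.37, adjusted p = 0.285). *Cycs* (chromosome 6, 50562563 to 50566538), whose upstream window is shown above, had 4.97, 4.94 and 5.57 in the external samples and 4.72, 4.02, 4.24 and 4.53 in the internal samples. Its log2 fold change of -0.78 was called with an adjusted p of 0.0436 and was lost in 6 of the 7 refits with one sample omitted.

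In complex IV, *Cox7a2l* (chromosome 17, 83501918 to 83517330), which joins complexes III and IV into supercomplexes, had 9.63, 9.95 and 9.61 log2 CPM in the external samples and 9.03, 8.93, 8.61 and 8.67 in the internal samples. The internal samples were all lower, and the log2 difference was -0.91 (standard error 0.14, adjusted p = 4.26e-05). *Cox5b* (chromosome 1, 36691449 to 36693681) had 7.74, 8.08 and 8.46 in the external samples and between 7.13 and 7.32 in the internal samples, a log2 difference of -0.89 (adjusted p = 0.000246). *Cox5a* had 8.39, 8.51 and 8.52 against 7.56, 7.78, 7.94 and 7.62, a log2 difference of -0.75 (adjusted p = 0.000379). Both *Cox5a* and *Cox5b* encode subunits that bind to the mitochondrially encoded core of the enzyme. *Cox8a*, *Cox7a2*, *Cox7b* and *Cox6a1* fell by between 0.61 and 0.39 on the log2 scale, and the calls of *Cox7b* and *Cox6a1* were lost in 4 and 5 of the 7 refits with one sample omitted. *Ndufa4* had lower values in all internal samples, with a log2 difference of -0.65 that missed the threshold (adjusted p = 0.0557). *Cox6c* differed by -0.11 (95% interval -0.36 to 0.15), although it was abundant, with at least 2491 reads in each region sample.

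Several complex IV subunits exist as a form found in most tissues and a form typical of heart and skeletal muscle. Of the listed pairs, *Cox6a1* had a mean of 8.64 in the external and 8.25 in the internal samples, while the muscle form *Cox6a2* had between 1 and 43 reads in the region samples. *Cox7a2* had means of 9.51 and 8.95, while the muscle form *Cox7a1* had between 2 and 36 reads. No difference could be seen in the muscle forms at this depth (adjusted p = 0.577 and 0.833). *Cox6b2*, *Cox8b*, *Cox8c* and *Ndufa4l2* were not analysed here, nor were the Cox4i genes.

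In complex V, *Atp5g1* (chromosome 11, 96068852 to 96075670) showed the largest decrease among the called members, and it is 1 of 3 genes whose proteins give the same mature subunit c of the rotating ring. It had 8.26, 8.44 and 8.83 log2 CPM in the external samples and 7.56, 7.12, 7.33 and 7.16 in the internal samples. The regions did not overlap, and the log2 difference was -1.22 (95% interval -1.54 to -0.89, adjusted p = 5.22e-06). *Atp5g3* fell by 0.53 (adjusted p = 0.00493), with between 8.70 and 8.92 in the external samples and between 8.17 and 8.35 in the internal samples. *Atp5g2* differed by 0.03 (95% interval -0.56 to 0.61). Of the reads of these 3 genes, *Atp5g1* took 38.0%, 44.2% and 50% in the external samples and 37.9%, 28.9%, 32.5% and 30.3% in the internal samples, so that internal replicate 1 was just below external replicate 1. *Atp5g2* shares 99.0% of its 3′ end with other genes and *Atp5g1* shares 36%, which makes their unique reads uncertain as levels.

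*Atp5d* (chromosome 10, 80138632 to 80145818), the delta subunit of the central stalk, had 9.80, 10.28 and 10.16 log2 CPM in the external samples and between 9.09 and 9.24 in the internal samples, a log2 difference of -0.93 (adjusted p = 1.87e-05). *Atp5b* (chromosome 10, 128083273 to 128090391), the catalytic beta subunit, had 9.22, 9.23 and 9.49 in the external samples and 8.37, 8.45, 8.55 and 8.72 in the internal samples. Its log2 fold change was -0.79 (adjusted p = 0.000133), and that of *Atp5a1*, the alpha subunit of the same head, was -0.60 (adjusted p = 0.00154). Both genes of the catalytic head were thus lower in every internal sample. *Atp5l* and *Atp5md*, which encode small subunits in the membrane, fell by 0.77 and 0.62, and *Atp5c1* and *Atp5j2* fell by 0.53 and 0.48, calls that were lost in 1 and 2 of the 7 refits with one sample omitted. *Atp5l* shares 70.1% of its 3′ end with other genes, and *Atp5h* shares 50%. *Atp5e*, *Atp5mpl*, *Atp5pb* and *Atp5h* were lower in all internal samples than in all external samples without being called.

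**Figure D3:**
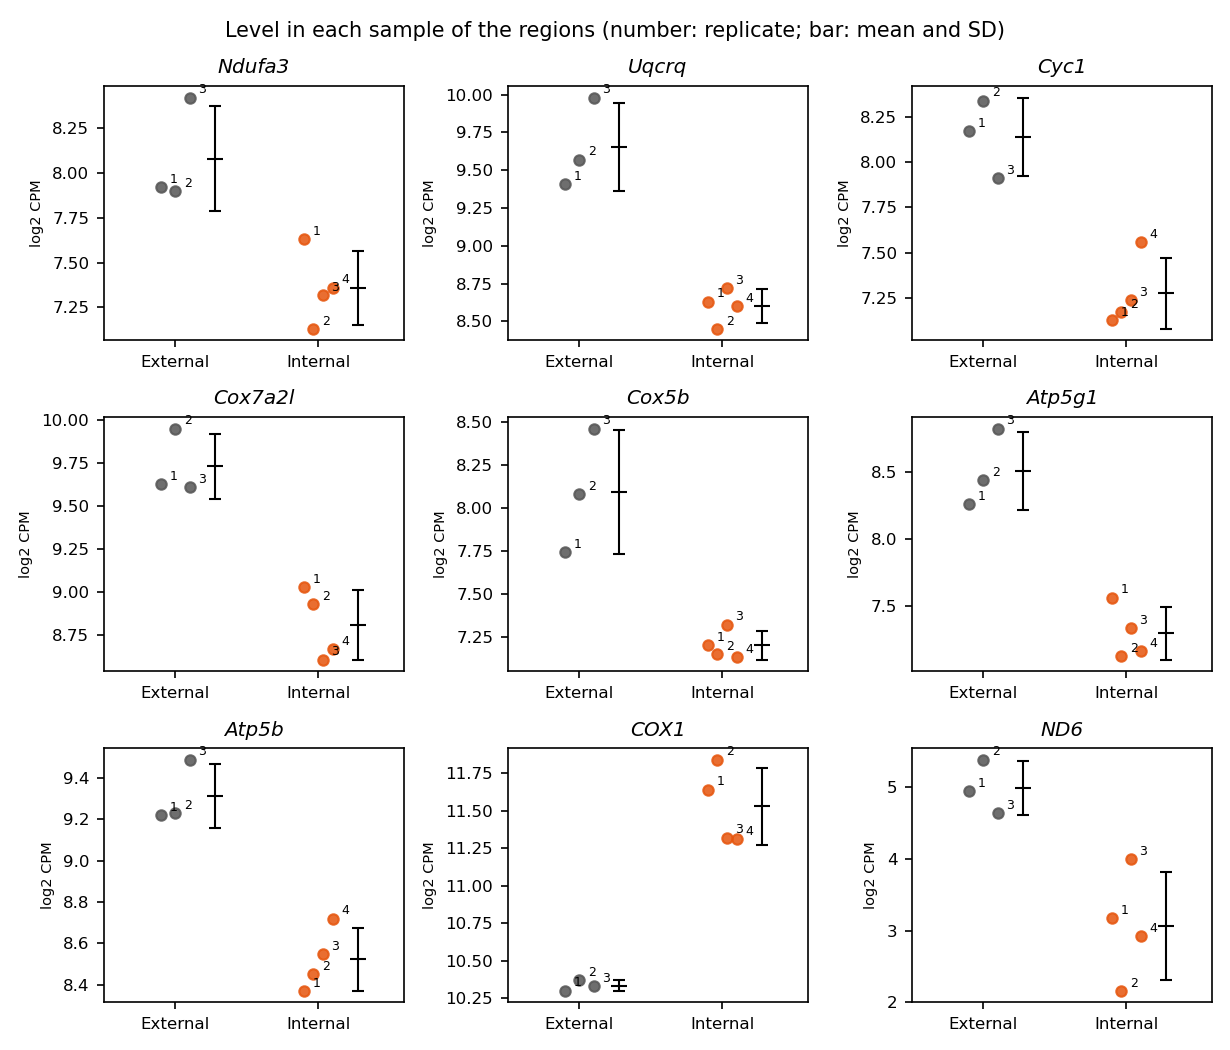
Log2 CPM of 9 genes in each external and internal sample, with the replicate number beside each point and the mean and SD as bars; the vertical axes differ in range between panels. The internal points lie below the external points for the 7 nuclear-encoded genes and for ND6, and above them for COX1.

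The mitochondrially encoded genes moved the other way between the regions. Of the 13 protein genes of mitochondrial DNA, 7 were listed in both tables, namely COX1, CYTB, ND1, ND2, ND4, ND5 and ND6, and the other 6 were not analysed here. In the internal region 6 of the 7 rose, with log2 fold changes of 1.19 for COX1, 1.11 for CYTB, 1.06 for ND4, 1.0 for ND5, 0.85 for ND2 and 0.53 for ND1 (adjusted p between 1.59e-06 and 0.0138 from limma). The call of ND1 was lost without internal replicate 4 and without external replicate 2, and those of ND1 and ND2 were lost without the variance trend. ND6, the only one of these genes on the opposite strand and overlapping the end of ND5, fell by 1.93 (adjusted p = 0.000813). It had 4.94, 5.38 and 4.64 log2 CPM in the external samples and 3.17, 2.16, 3.99 and 2.92 in the internal samples. COX1 (chromosome M, 5328 to 6872) had 10.30, 10.37 and 10.33 in the external samples and 11.64, 11.84, 11.32 and 11.31 in the internal samples. Every stretch of the last 300 bases of COX1 is shared with 2 other annotated genes, and 31.9% of the 3′ end of ND2 with another, which makes their levels from unique reads uncertain.

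For each read of the 84 nuclear-encoded genes, there were 1.59, 1.26 and 1.67 reads of the 7 mitochondrially encoded genes in external replicates 1 to 3. In internal replicates 1 to 4 the ratio was 4.30, 3.94, 3.41 and 3.80. The ratio was thus higher in every internal sample than in every external sample. The mitochondrially encoded genes took 3.10% ± 0.541 (SD, n = 3) of the reads in the external and 6.14% ± 0.654 (SD, n = 4) in the internal region. When the library totals were taken without these genes, 27 of the 84 nuclear-encoded genes fell and none rose, and the median log2 fold change was -0.40, against 0.09 for all genes.

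The comparison of 3D with 2D asked what growth as an organoid changes. Here 9 of the 83 genes were called, 4 as higher and 5 as lower in 3D, and 19 (22.9%) had an unadjusted p below 0.05, against 33.7% of all genes. Over all genes 19.0% were called, 9.74% as higher and 9.25% as lower. The 83 genes had a median log2 fold change of 0.00, and all genes one of -0.03, with 41 of the 83 genes below 0 and 42 above it. The groups did not overlap for 7 genes that were lower and 6 that were higher in 3D, against 12.0% of all genes in each direction and 24.0% in either. None of the 83 genes passed these stricter thresholds in limma, against 4.43% of all genes. The split of the calls changed with the scaling. Median centring gave 3 higher and 1 lower, and totals without the mitochondrially encoded genes gave 4 higher and 3 lower. With the mean deviation of genes of like 3′ end GC removed, as described below, the split was 3 higher and 11 lower. Without the variance trend 4 of the 9 genes remained. The count was 1 without 3D replicate 3, 2 without 2D replicate 3, 3D replicate 1 or 3D replicate 4, and 5 without 2D replicate 4.

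*Ndufa6* (chromosome 15, 82350140 to 82354322) rose the most among the calls. It encodes an accessory subunit of complex I of the LYR family. It had 7.80, 7.75, 7.78 and 7.30 log2 CPM in 2D replicates 1 to 4 and 8.43, 8.42, 8.77 and 8.89 in 3D replicates 1 to 4. The groups did not overlap, and the log2 difference was 0.97 (95% interval 0.62 to 1.33, adjusted p = 0.00343 from limma). It was the only member called in each of the 8 refits with one sample omitted. *Ndufa7*, another accessory subunit, had 7.34, 7.53, 7.20 and 7.01 in 2D and 7.75, 7.69, 7.99 and 7.96 in 3D, a log2 difference of 0.58 (adjusted p = 0.0174). It lost this call in 2 of those refits. In the regions the differences of *Ndufa6* and *Ndufa7* were 0.28 (adjusted p = 0.188) and -0.16 (adjusted p = 0.505), and neither was called.

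*Ndufab1* (chromosome 7, 122085403 to 122101886), the acyl carrier protein that sits in complex I beside LYR subunits, fell. It had 7.52, 7.10, 7.49 and 7.25 log2 CPM in 2D and 6.66, 6.77, 6.63 and 6.96 in 3D. All 3D samples were lower, with a log2 difference of -0.58 (standard error 0.14, adjusted p = 0.0167), and the call was lost in 3 of the 8 refits with one sample omitted. The core subunits of complex I described above were not called, with log2 fold changes between -0.36 for *Ndufs1* (adjusted p = 0.0567) and 0.12 for *Ndufv1* (adjusted p = 0.622). In complex II, *Sdha*, *Sdhb* and *Sdhc* differed by -0.21, -0.10 and -0.06, none of which was called. *Sdhd* had 5.04, 1.19, 0.37 and 1.21 in 2D and between -0.71 and 0.49 in 3D, so that 2D replicate 1 stood apart, and was not called (adjusted p = 0.123). The assembly factor gene *Sdhaf4*, whose protein acts on the flavinylated Sdha subunit, rose by 0.55 (adjusted p = 0.0323), with between 172 and 294 reads per sample, and its call was lost in 5 of the 8 refits.

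None of the 9 genes of complex III was called in 3D against 2D, and 3 of them had an unadjusted p below 0.05 (limma). *Cyc1* differed by -0.40 (95% interval -0.74 to -0.07, adjusted p = 0.0861), *Uqcrfs1* by -0.41 (adjusted p = 0.118) and *Uqcrq* by -0.31 (adjusted p = 0.282), while *Uqcrh* was 0.33 higher (adjusted p = 0.0968). *Cycs* differed by -0.43 (adjusted p = 0.0829). In complex IV, *Cox6c* was called as higher with a log2 difference of 0.40 (adjusted p = 0.0491). It had 9.73, 9.97, 10.02 and 9.88 in 2D and 10.22, 10.31, 10.19 and 10.49 in 3D. This call was lost in all 8 refits with one sample omitted, and 34.9% of the 3′ end of *Cox6c* is shared with *Cox6c2*. The muscle forms were low in the cultures too, with between 1 and 14 reads for *Cox7a1* and between 9 and 145 reads for *Cox6a2*.

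In complex V, 4 of 16 genes fell and none rose. Its share of the reads was at least 0.681% in every 2D sample and at most 0.675% in every 3D sample. *Atp5g1* had 8.61, 8.97, 8.65 and 8.66 log2 CPM in 2D and 8.22, 8.40, 7.80 and 8.26 in 3D, a log2 difference of -0.55 (adjusted p = 0.0291). *Atp5a1* had 9.61, 9.78, 9.64 and 9.47 in 2D and 9.12, 9.33, 8.98 and 9.25 in 3D, a log2 difference of -0.45 (adjusted p = 0.0298). *Atp5b* had 10.21, 10.22, 10.11 and 9.96 in 2D and 9.70, 9.87, 9.50 and 9.80 in 3D, a log2 difference of -0.41 (adjusted p = 0.0487). *Atp5pb*, the b subunit of the peripheral stalk, fell by 0.36 (adjusted p = 0.0484). For each of the 4 genes the 3D samples all lay below the 2D samples, but their calls were lost in between 4 and 8 of the 8 refits with one sample omitted. All 4 were also lost with median centring. *Atp5g3* differed by -0.46 (adjusted p = 0.0616) and *Atp5g2* by -0.08 (adjusted p = 0.817).

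**Figure D4:**
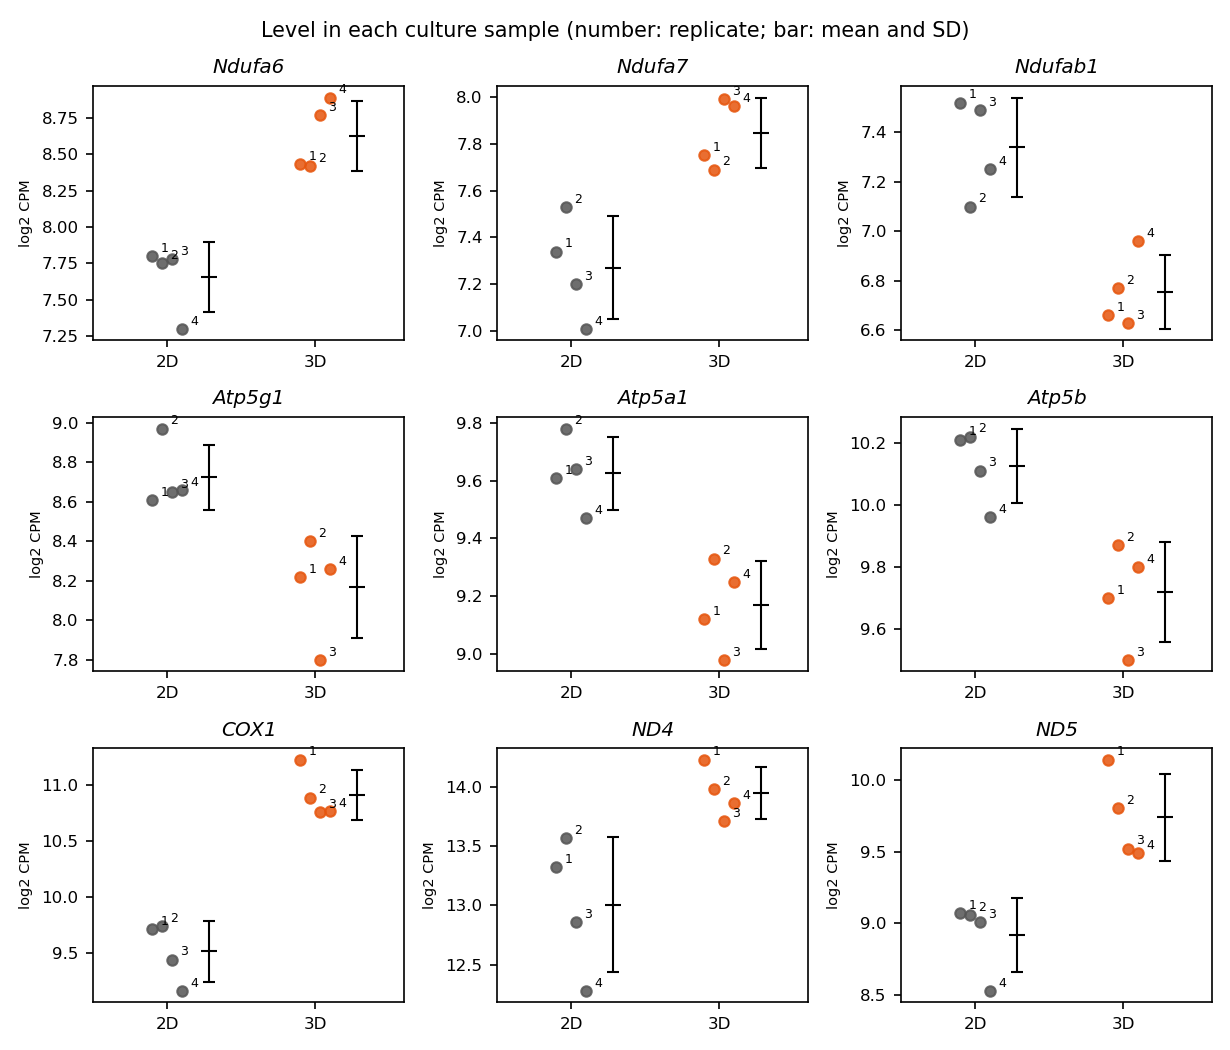
Log2 CPM of 9 genes in each 2D and 3D sample, with the replicate number beside each point and the mean and SD as bars; the vertical axes differ in range between panels. The 3D points lie above the 2D points for *Ndufa6*, *Ndufa7*, COX1, ND4 and ND5 and below them for *Ndufab1*, *Atp5g1*, *Atp5a1* and *Atp5b*.

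*Atp5g1*, *Atp5a1* and *Atp5b* were called as lower in both comparisons, which share no samples. They were 60.0% of the 5 members lower in 3D and 8.82% of the 34 members lower in the internal region. Over the 11041 genes in both tables, the 506 called as lower in both were 48.5% of those lower in 3D and 37.1% of those lower in the internal region. The share called as lower in both was 3.61% of the members and 4.58% of all genes. Of the 83 members in both tables, 31 were called only as lower in the internal region and 43 in neither comparison. Whether the effects differ between the comparisons was not tested.

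Of the mitochondrially encoded genes, 4 of 7 rose in 3D as well. The log2 fold change was 1.40 for COX1 (adjusted p = 0.000859), 0.95 for CYTB (adjusted p = 0.042), 0.94 for ND4 (adjusted p = 0.0371) and 0.82 for ND5 (adjusted p = 0.0126). COX1 had 9.71, 9.74, 9.44 and 9.16 log2 CPM in 2D and 11.23, 10.89, 10.76 and 10.77 in 3D. The calls of COX1 and ND5 were kept in all 8 refits with one sample omitted, and those of CYTB and ND4 were lost in 6. ND1, ND2 and ND6 differed by 0.28, 0.20 and 0.04 and were not called. The number of mitochondrially encoded reads per read of the nuclear-encoded members was 1.65, 1.33, 1.29 and 1.05 in 2D and 2.80, 1.90, 1.93 and 1.82 in 3D. All 3D samples were above all 2D samples in this ratio, while the share of reads taken by the nuclear-encoded members overlapped, with 2.32% ± 0.144 (SD, n = 4) in 2D and 2.23% ± 0.104 (SD, n = 4) in 3D.

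A few members varied more between the libraries of a group than between the groups. *Ndufa1*, a small complex I subunit encoded on chromosome X (37187588 to 37191163), had 7.21, 4.16, 6.08 and 6.10 log2 CPM in 2D and 6.44, 4.70, 6.51 and 6.22 in 3D. *Cox7c* (chromosome 13, 86044816 to 86046904) had 9.84, 7.66, 9.36 and 9.77 in 2D and 10.19, 9.14, 9.97 and 10.27 in 3D, and 65.2% of its 3′ end is shared with 3 other annotated genes, which makes its level from unique reads uncertain. Replicate 2 was the lowest of each group for both genes, and it was so for *Ndufb3* and *Ndufb1* as well. In the regions, *Ndufb3* had 6.17, 5.27 and 4.35 in external replicates 1 to 3, and *Ndufa1* had 5.85, 4.79 and 4.35. Of these genes, the 3 with a GC value were poor in G and C at the 3′ end, with 30% GC in the last 100 bases of *Ndufa1*, 24.0% for *Cox7c* and 23.0% for *Ndufb3*, against a median of 41.2% for the members, while the *Ndufb1* entry had no such value.

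Across the 7138 genes of the culture table whose mean is 4 log2 CPM or more and that have a 3′ end in the annotation, the deviation of 2D replicate 2 from the group median had a Spearman correlation of 0.44 with this GC content. The correlation was 0.24 for 3D replicate 2 and -0.36 for 2D replicate 1, and over 7127 genes of the region table it was -0.25 for external replicate 1. These describe genes within single libraries, which are not independent replicates. With all samples and without regard to replicate numbers, no difference between groups was called for *Ndufa1*, *Ndufb1*, *Ndufb3* or *Cox7c*, but without external replicate 1 *Ndufa1*, *Ndufb1* and *Cox7c* were called as higher in the internal region. With the mean deviation of genes of like GC removed in each sample, an adjustment chosen after seeing the data, 31 members were called between the regions, 1 higher (*Ndufv3*) and 30 lower, and 27 of them were among the 34. In the cultures the same adjustment gave 14 members, 3 higher and 11 lower, of which 6 were among the 9. Over all genes with a 3′ end in the annotation, it called 997 as higher and 1315 as lower in 3D. Between the regions it called 1085 of such genes as higher and 1313 as lower. The part of base composition in the other calls was not tested.

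**Figure D5:**
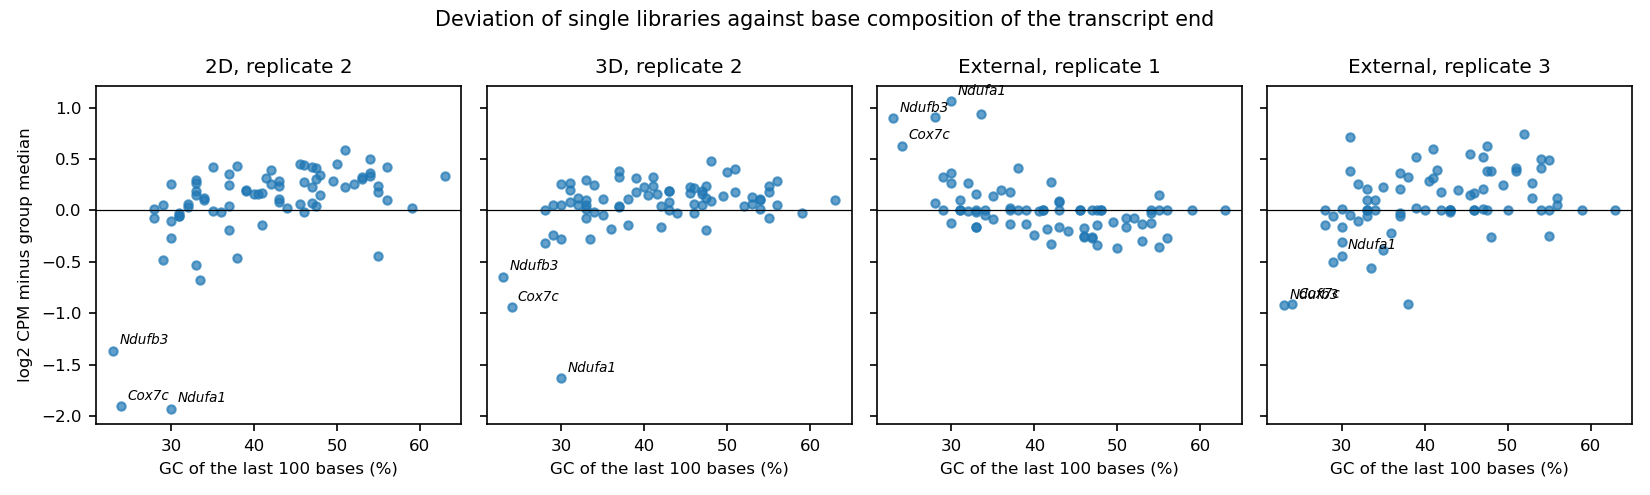
Deviation of single libraries from the median of their group (vertical axis, log2 CPM) for members whose group mean is 4 log2 CPM or more, against the GC content of the last 100 bases of the transcript (horizontal axis, %). *Ndufa1*, *Ndufb3* and *Cox7c* lie lowest in replicate 2 of 2D and of 3D and are above the group median in external replicate 1.

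Genes that serve the respiratory chain without being part of it were described from lists of pathway genes. Their counts are to be read against the 12.1% of all genes that were called as lower and the 9.58% called as higher between the regions, and against 9.25% lower and 9.74% higher in 3D. Of the 75 genes of the mitochondrial ribosome, which translates the mitochondrially encoded subunits, 25 (33.3%) fell in the internal region and none rose, with a median log2 fold change of -0.41. *Mrpl12* and *Mrpl20* fell the most, by 1.21 and 1.10. In 3D, 7 of the 75 (9.33%) fell, a share near that of all genes, and none rose, with a median of -0.21, and *Mrpl20* and *Mrpl18* fell by 0.73 each. Of 20 genes of protein import and the outer membrane porins, 6 (30%) fell in the internal region, led by *Timm50* (-0.96) and *Tomm70a* (-0.91), and 5 (25%) fell in 3D, led by *Timm23* (-0.90) and *Timm17a* (-0.73). None of these 20 genes rose in either comparison.

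Of 43 assembly factors of the respiratory complexes, 4 (9.3%) fell and none rose in the internal region, and 3 (6.98%) fell and 3 rose in 3D, which is below the shares of all genes that fell. *Cmc2*, which serves the assembly of complex IV, fell in both, by 1.16 and 1.14, whereas *Surf1* and *Taco1* rose by 1.09 and 1.07 in 3D. Of 18 genes of the tricarboxylic acid cycle, *Cs* (-0.77) and *Mdh2* (-0.73) fell in the internal region, and *Pdha1* (-0.54) and *Idh3a* (-0.69) fell in 3D, 11.1% of the list in each comparison and near the share of all genes. Of 11 genes of coenzyme Q synthesis, *Coq7* alone (9.09%) fell in the internal region (-1.27). In 3D *Pdss1* (-1.26) and *Coq7* (-0.77) fell and *Coq10a* rose (1.02), so that 27.3% of these 11 genes were called, against 19.0% of all genes.

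Among genes that transcribe, replicate or stabilise mitochondrial DNA and RNA, *Lrpprc* and its partner *Slirp*, which stabilise mitochondrial mRNAs, fell in the internal region by 0.62 and 0.73, and *Lrpprc* fell by 0.54 in 3D. *Tk2*, a mitochondrial thymidine kinase, rose by 0.78 in the internal region and by 1.10 in 3D, and *Dguok* rose by 0.84 in 3D. Of this list, 3 of 17 genes (17.6%) were called in the regions and 3 of 18 (16.7%) in the cultures, compared with 21.7% and 19.0% of all genes. Of 10 nuclear regulators of respiratory genes, none was called between the regions (limma), and the difference of *Nrf1* was 0.09 (adjusted p = 0.803). In 3D, *Gabpb2* and the coactivator gene *Pprc1* fell by 0.86 and 0.61 (adjusted p = 0.0219 and 0.0461), and *Nrf1* differed by -0.28 (adjusted p = 0.20).

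Markers of other cell types were summed in the same samples. Of 9 fibroblast markers, 7 were listed in the culture table, and 4 of them rose in 3D, with sums between 117 and 280 CPM in 2D and between 552 and 812 CPM in 3D. In the regions 6 were listed, of which 2 rose and 1 fell in the internal region, with sums between 281 and 667 CPM in the external and between 533 and 615 CPM in the internal samples. Of 7 leukocyte markers, 1 was listed in the culture table and 2 in the region table, with sums of at most 10.6 CPM, and none was called. None of the 8 vascular and muscle markers was listed. The lens markers summed to between 4680 and 5400 CPM in the external and between 11200 and 12100 CPM in the internal samples, and 6 of 8 rose in the internal region. *Aqp1* alone gave between 3690 and 4480 CPM in the external and between 9780 and 10700 CPM in the internal samples, and the other 7 markers together gave between 904 and 995 CPM and between 1360 and 1700 CPM. The part of these marker differences in the changes of the respiratory chain genes was not tested.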

How the data were processed

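The authors deposited log2 CPM values per gene and sample in 2 tables, one of 2D and 3D cultures and one of internal and external regions, scaled separately with edgeR. Per the labels and the study's methods, QuantSeq 3′ libraries were mapped with STAR 2.7.8a to GRCm38.p6, sense unique reads were counted with featureCounts 1.6.0, and genes above 0.2 CPM were kept; the annotation release is not given in the sources used here. RNA of whole cultures and of captured regions was extracted with different kits. The tables also hold the authors' fold changes, p-values, FDR and mean log CPM, which were not used.

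Whole reads were recovered from the spacing of the values (within 0.1 reads), giving 7305053 to 9362587 reads per culture sample and 4044230 to 11702504 per region sample, so that 3 reads equal 0.312 to 0.409 CPM and 0.248 to 0.802 CPM. Shares of reads were taken from these reads as a part of each sample's total, so they also depend on the reads of all other genes.

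The deposited log2 CPM values were tested with limma 3.58.1 (R 4.3.3), as two-sided moderated tests with the prior variance allowed to follow the mean level, and p-values were adjusted by Benjamini-Hochberg across each whole table. Figures were drawn with matplotlib 3.10.9, and tables were handled in Python 3.11.15 with pandas 2.3.3 and scipy 1.17.1. Positions and 3′ ends came from GENCODE M21, in which 11676 of 11677 and 11298 of 11299 identifiers were found. Shared sequence is the share of 50-base stretches of the last 300 bases of a gene's transcripts that another gene's transcript holds.

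Named genes were, in each complex, the 3 called members with the largest change in each direction, members with redox centres or catalytic sites, paralog sets, mitochondrially encoded genes, the highest and lowest members, and the 2 called genes of each further list with the largest change in each direction. Others were named after their values were seen. The members and lists were chosen with earlier results of these data known. Alternatives varied the variance trend, prior, filter, pseudocount, scaling, test on recovered reads, thresholds, pairing and samples. Scripts were tested on simulated data. Not analysed here was a further external sample that the study removed on its place in a principal component analysis.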

Additional observations from a re-analysis of the deposited data

Results flagged for a closer look

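Within groups of 4 samples, 6 of 135 tests found a sample far from the other 3, where chance gives about 1 in 20. *Atp5g1* was high in 2D replicate 2, at 8.97 log2 CPM against 8.61 to 8.66 in the others. *Cox8a*, ND5 and *Ndufa6* were each low in 2D replicate 4, at 8.71 against 9.0 to 9.04, at 8.53 against 9.01 to 9.07, and at 7.30 against 7.75 to 7.80. The mean level of complex II was high in 2D replicate 1, at 6.96 against 5.67 to 5.86, where *Sdhd* had 5.04 log2 CPM against at most 1.21 in the others. *Sdhb* was high in 3D replicate 4, at 8.0 against 7.70 to 7.75.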

How the results depend on the processing

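No call of a named gene changed its direction under any setting tried. Between the regions, the 34 members called became 11 without the variance trend and 2 at an adjusted p under 0.01 with an absolute log2 fold change over 1, and lay between 22 and 36 in either direction when single samples were left out. The median log2 fold change of -0.44 became -0.51 with median centring, -0.40 with totals without the mitochondrially encoded genes and -0.38 with 3′ end GC centred, and lay between -0.49 and -0.37 when single samples were left out. Between 3D and 2D, the 9 members called became 4 without the variance trend, 4 with median centring, 14 with 3′ end GC centred (median -0.11, and -0.09 for all genes) and 0 at the stricter thresholds, and lay between 1 and 10 when single samples were left out. The 4 mitochondrially encoded genes called became 2 without the variance trend and 1 at the stricter thresholds, and lay between 2 and 4 when single samples were left out. The cause was not tested. Replicate numbers did not pair the samples throughout. The correlations of the deviations of same-numbered samples were 0.227, 0.503, 0.066 and 0.005 in the cultures and -0.044, -0.065 and -0.063 in the regions. Only cultures numbered 1 and 2 correlated best with their own number. Whether these numbers mark a shared effect in the cultures was not tested. With the replicate number as a block, 10 members were called between 3D and 2D, 5 higher, among them *Cox7c*, and 5 lower. The calls of *Atp5b*, *Atp5pb* and *Cox6c* were lost. Between the regions 24 members were called with this block, all lower. Over all genes, the block gave 1343 higher and 1337 lower in 3D, and 719 higher and 1064 lower in the internal region. Leaving out both culture samples numbered 2, chosen after seeing the data like the GC centring, gave 10 members (4 higher, 6 lower). Over all genes it gave 1232 higher and 1302 lower. Depth was low for *Sdhd*, *Cox7a1* and *Cox6a2*, which had between 0 and 65, 2 and 36, and 1 and 43 reads in the region samples.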
